A study of Mus musculus with 4 samples.

Results

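Serpins are a family of proteins that share a single fold, most of which block serine or cysteine proteases. The 63 genes described here are all rows of the deposited table, out of 23281 gene symbols, whose symbol begins with Serpin, a clade letter from a to i and a digit. Clade A holds 25 of them, clade B 27, clade E 3, clades F and I 2 each, and clades C, D, G and H 1 each. A serpin of the inhibitory kind offers the protease an exposed loop as bait. When the protease cuts this loop the serpin snaps into a more stable shape and traps the enzyme, so each inhibitor molecule is used up. Clade A serpins are secreted and many are made by the liver, clade B serpins lack a classical signal peptide and mostly stay inside cells, where they guard epithelia and leukocytes against their own or leaked proteases, and clade E serpins control plasminogen activation at the cell surface. A few members, such as Serpinb5 and Serpinh1, have the fold but do other work.

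RNA was sequenced from 1 library of respiratory basal cells (RBCs), the stem cells of the respiratory epithelium, and from 3 libraries of horizontal basal cells (HBCs), the reserve stem cells of the olfactory epithelium. The RBCs were microdissected and sorted as TdTomato+ cells straight from mice of the strain KRT5-CreER;Ai9-fl(stop)TdTomato, and the HBCs were wildtype cells grown in culture to passage 3 with no sort given. In the RBC strain the keratin 5 promoter drives an inducible Cre that switches on the reporter for good, so daughter cells of a marked basal cell carry it too. Tissue, culture and strain thus differ together between the groups, and their parts cannot be told apart. The sources used here give no ages, no numbers of animals and no inducing agent.

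Levels are in depth-scaled FPKM: deposited fragments per kilobase of transcript, which allow comparison between genes, were divided by 1 factor for each library. HBC levels stand per library or as a mean ± SD (n = 3), whereas the RBC level has no replicate. Summed deposited values were 9877610 in the RBC library and 8377230 to 10856000 in the HBC libraries. Read numbers are not stated by the sources used here. Markers were called different by the rule given below. Under that rule 34.2% of all genes tested had the higher level in the RBC library, and 12.8% in HBC libraries. Basal markers were present in both groups, with Krt5 at 26488 in the RBC library and 18625 ± 369 in HBC libraries. Most markers of other cells were also higher in the RBC library. All 8 fibroblast markers were called higher there (summed level 7725, of which Dcn made up 6902, against 44.7 to 67.7 in HBC libraries, with Mfap5 listed at 0 in all HBC libraries). The same held for 8 of 11 tested leukocyte markers (15266 in the RBC library, against 618 to 729 in HBC libraries, with Csf1r, Tyrobp and Ncf1 at 0 in HBC libraries), although Lyz2 made up 14770 of the RBC sum. Without Lyz2 the leukocyte markers summed to 496 in the RBC library and 594 to 710 in HBC libraries, where Cd68 was called 7.84-fold higher (65.7 in the RBC library, against 515 in HBC libraries). The RBC library was also higher in 6 of 6 endothelial markers (69.0 in the RBC library, against 0.750 to 2.42 in HBC libraries, with Tie1, Emcn and Cldn5 at 0 in HBC libraries). All 5 tested markers of mast and cytotoxic cells were called higher there as well (254 in the RBC library, against 0 to 0.940 in HBC libraries, with Prf1 at 0 everywhere). Kit made up 219 of that RBC sum, and Cpa3, Mcpt4, Gzma and Nkg7 were at 0 in HBC libraries. Of 7 tested secretory and gland markers 4 were higher in the RBC library and 3 in HBC libraries (489477 in the RBC library, against 150270 to 152946 in HBC libraries, with Scgb1a1 at 0 everywhere). Bpifa1 made up 439407 of the RBC sum, and Ltf had a mean of 119163 in HBC libraries. All 6 markers of sustentacular cells, all 6 of olfactory neurons and all 5 of ciliated cells were called higher in the RBC library too, with summed levels of 12054, 4785 and 3386 there and 147 to 155, 79.6 to 109 and 171 to 208 in HBC libraries. Cyp2g1, Cyp1a2, Stoml3 and Tekt1 were among those at 0 in HBC libraries. All endothelial markers, all tested mast and cytotoxic markers, and all sustentacular markers but Notch2, passed the low-value filter given below only through the RBC value. Their direction was thus fixed. The same held for some fibroblast, leukocyte, secretory, neuronal and ciliated markers and for the squamous marker Krt1. Of 8 squamous markers, 3 were called higher in the RBC library, 4 higher in HBC libraries and 1 was not called (4371 in the RBC library, against 47609 to 48072 in HBC libraries). Basal markers other than Krt5 differed as well, and 8 of 10 were called higher in the RBC library (69446 in the RBC library, against 25738 to 26737 in HBC libraries). What these cells contributed to the serpin values was not tested. In bulk RNA, fewer cells of a type and less RNA per cell cannot be told apart.

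Different members made up most of the serpin RNA in the RBC library and in the HBC libraries, while the totals were close. The serpin values summed to 27155 in the RBC library, against 23519, 23241 and 24249 in HBC libraries 1, 2 and 3. Clade A supplied 65.2% of the RBC sum and clade B 24.2%. In the HBC libraries clade A supplied 0.171% ± 0.0271 and clade B 82.9% ± 0.516 (SD, n = 3). Serpina3n alone made up 59.6% of the RBC sum and ranked 62nd of all genes in that library. In the HBC libraries the first place among serpins belonged to Serpinb6a, with 39.3% ± 0.333 of the sum and a rank of 132 to 134 among all genes, and Serpinb2 (14.5% ± 0.0401) and Serpine2 (11.7% ± 0.339) followed. The shares differed by under 1 percentage point between HBC libraries for each of these members.

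**Figure D1:**
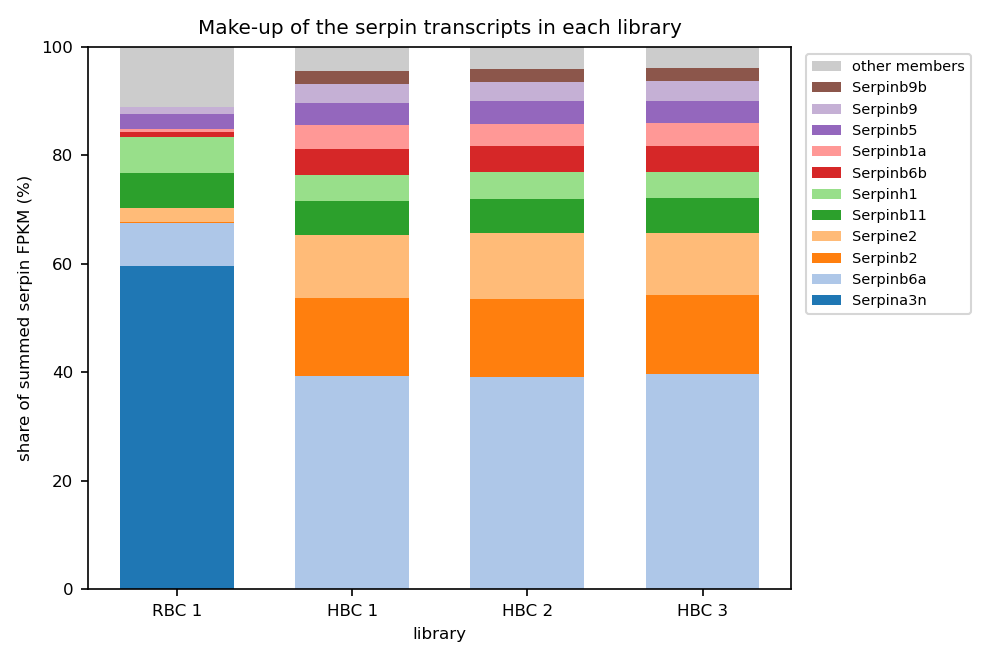
Each bar is a library (x axis, the RBC library first, then 3 HBC libraries) and shows the share of the summed serpin FPKM (y axis, percent) taken by 11 members and by the others together. Serpina3n takes 59.6% in the RBC library and is not visible in the HBC libraries, where Serpinb6a, Serpinb2 and Serpine2 lead.

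A gene was called different at an adjusted p under 0.05 in limma's test over all 16440 genes tested together with a change of at least 2-fold. Among all genes, 34.2% were called higher in the RBC library, 12.8% higher in HBC libraries and 47% in either direction. Among the genes above 0 in an HBC library these shares were 28.7%, 13.9% and 42.6%, because a tested gene at 0 in all HBC libraries was always called. Of the 63 serpins, 37 passed the filter on low values (a mean of the 2 group levels of at least 1), and 14 of these (37.8%) were higher in the RBC library by this rule, 10 (27.0%) higher in HBC libraries and 13 were not called. The share higher in the RBC library was thus close to that of all genes. Of the 37, 13 passed only through the RBC value and 5 only through the HBC values. The direction of any call was thus fixed for these, and their calls are a description. Serpina1b, Serpinb12, Serpinf2, Serpinb1c, Serpinb9c and Serpinb9e among them were not called. Another 26 members were not tested, and 8 of those were listed at 0 in all 4 libraries. With the medians set equal, the calls over all genes were 4702 for the RBC library and 3870 for HBC libraries, in place of 5621 for the RBC library and 2105 for HBC libraries. The median log2 change (RBC minus HBC, on log2(value + 1)) was 0.60 over the serpins tested and 0.45 over all genes tested. With that scaling the median of all genes became -0.05 and that of the serpins 0.10. Quantile normalization gave -0.097 for all genes and turned the serpin median to -0.31. The spread rests on the 3 HBC libraries, and the test takes the RBC library to vary like them.

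**Figure D2:**
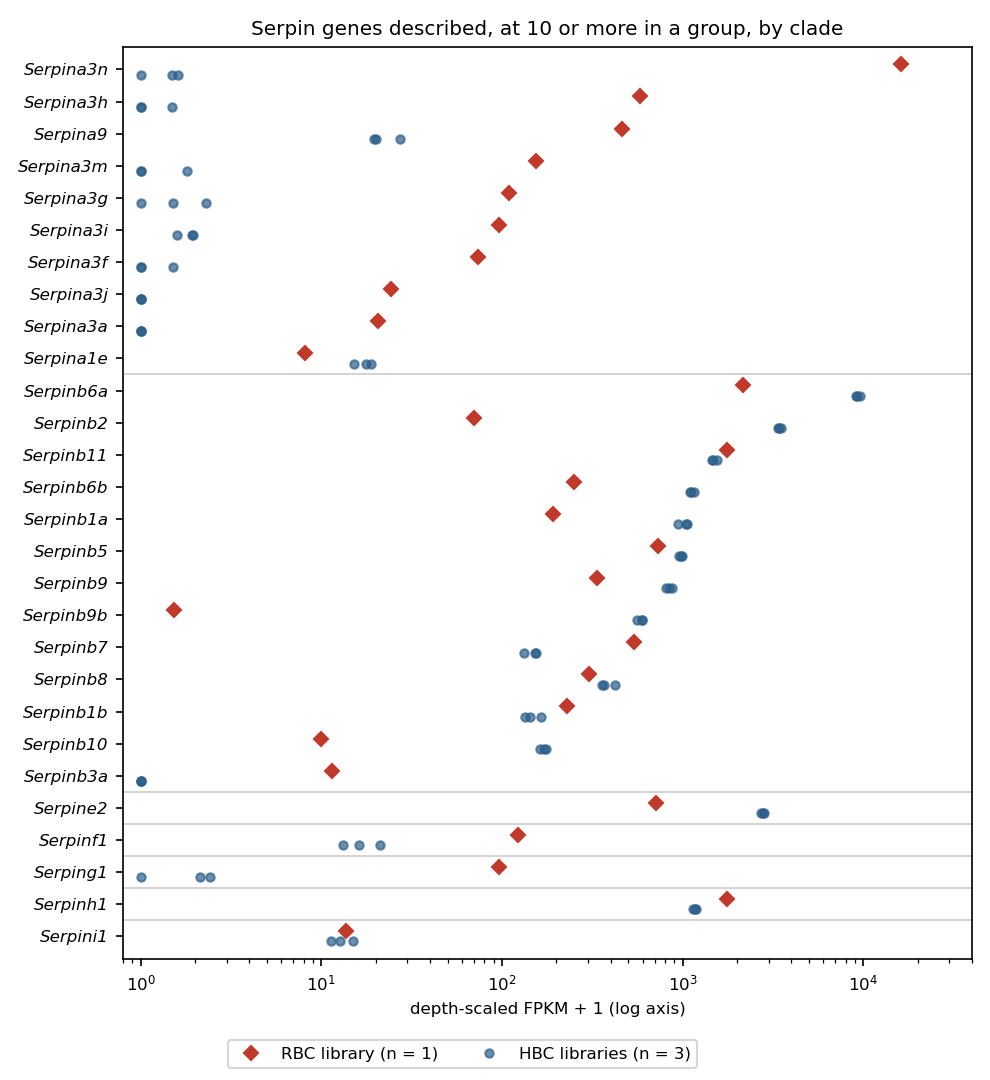
Depth-scaled FPKM plus 1 (x axis, log scale) of the serpin genes described at 10 or more in the RBC library or in the HBC mean, grouped by clade from A at the top to I at the bottom. Diamonds are the RBC library and circles the 3 HBC libraries, which lie close together for members above 100, while Serpina3n spans 16183 in the RBC library and 0.617 or less in HBC libraries.

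Within clade A the Serpina3 genes are a mouse gene cluster that corresponds to the single human gene for alpha-1-antichymotrypsin. They ranged from 0 to 16183 in the RBC library, and were at 0 or close to the smallest serpin values above 0 in HBC libraries. Serpina3n, a secreted acute-phase inhibitor known in mice to block granzyme B, was at 16183 in the RBC library, against 0.617, 0 and 0.490 in HBC libraries 1, 2 and 3 (log2 change 13.56 ± 0.38, SE, adjusted p = 0.000770). It stood 62nd in the RBC library and was listed at 0 in 1 HBC library. Serpina3h, annotated in RefSeq as a transcribed pseudogene, was at 581 in the RBC library, against 0, 0 and 0.499 in HBC libraries. Serpina3m was at 153 in the RBC library, against 0.797, 0 and 0 in HBC libraries. Serpina3g, which acts inside haematopoietic cells against lysosomal cathepsins, was at 108 in the RBC library, against 1.29, 0.517 and 0 in HBC libraries. For each of these genes the RBC value lay far above all HBC values. Serpina3i was at 95.8 in the RBC library and at 0.583 to 0.936 in HBC libraries, and Serpina3f at 72.5 in the RBC library and at 0 to 0.507 in HBC libraries. Serpina3j (23.2 in the RBC library) and Serpina3a (19.5) were listed at 0 in all 3 HBC libraries, so the filter fixed their calls and no p is given. The last 3 members of the group were at 1.87 (Serpina3c), 1.28 (Serpina3k) and 0 (Serpina3b) in the RBC library and at 0 in HBC libraries. All 8 tested Serpina3 genes were called higher in the RBC library, among 34.2% of all genes, but each passed the filter through the RBC value alone. These copies share sequence, so reads may have been split between them. Of the stretches of 50 bases in Serpina3h and Serpina3m transcripts in GENCODE M21, 21.9% and 19.1% also occur in another gene, against 6.90% for Serpina3n.

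The promoters of this cluster are shown because copies with similar start regions had very different levels. The windows run from 250 bases before to 50 after the annotated start and are credited to RefSeq (GRCm38.p6), which holds 1 or more for 52 of the 63 members. Those of Serpina3n (chr12:104406458-104406757, plus strand) and Serpina3c (chr12:104153823-104154122, minus strand) were 93.5% identical over 294 aligned bases, while the RBC levels were 16183 and 1.87. The other 27 pairs among the 8 Serpina3 promoters available ranged from 52.7% to 83.7%, and the unrelated pair of Serpina3n and Serpinb2 reached 69.9% over 196 bases, with gaps and ends not counted. Capitals mark matches on either strand to TTCNNNGAA (the core bound by STAT factors), TGANTCA (a form of the AP-1 site) and TATAAA (the TATA box), which do not overlap in the sequences printed. Serpina3g lies at chr12:104235897-104236196 and Serpina3i at chr12:104262872-104263171, both on the plus strand.
Serpina3n: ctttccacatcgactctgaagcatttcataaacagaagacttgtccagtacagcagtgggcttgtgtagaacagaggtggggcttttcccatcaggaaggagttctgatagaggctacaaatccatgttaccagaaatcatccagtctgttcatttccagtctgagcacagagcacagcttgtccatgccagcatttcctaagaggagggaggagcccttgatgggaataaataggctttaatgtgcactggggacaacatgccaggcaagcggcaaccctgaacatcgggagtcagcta
Serpina3c: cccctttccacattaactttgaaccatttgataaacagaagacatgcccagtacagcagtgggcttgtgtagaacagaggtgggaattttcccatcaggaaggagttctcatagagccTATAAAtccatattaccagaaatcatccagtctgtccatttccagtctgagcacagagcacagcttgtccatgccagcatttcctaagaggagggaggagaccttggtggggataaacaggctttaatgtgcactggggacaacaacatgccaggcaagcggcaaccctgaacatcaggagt
Serpina3g: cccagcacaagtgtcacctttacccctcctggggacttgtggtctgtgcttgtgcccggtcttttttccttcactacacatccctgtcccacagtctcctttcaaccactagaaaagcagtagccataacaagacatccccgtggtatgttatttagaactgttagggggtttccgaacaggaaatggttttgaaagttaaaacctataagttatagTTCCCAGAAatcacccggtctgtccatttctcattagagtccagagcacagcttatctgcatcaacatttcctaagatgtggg
Serpina3i: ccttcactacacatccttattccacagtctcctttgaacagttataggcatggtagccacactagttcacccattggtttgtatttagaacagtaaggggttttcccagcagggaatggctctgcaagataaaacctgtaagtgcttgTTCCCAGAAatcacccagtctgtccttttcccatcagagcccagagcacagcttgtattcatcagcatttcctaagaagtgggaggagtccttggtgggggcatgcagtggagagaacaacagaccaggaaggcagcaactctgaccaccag
The Serpina3n window holds none of the 3 motifs, and Serpina3c holds TATAAA. TTCNNNGAA was found in 3 of the 8 Serpina3 genes with a promoter (Serpina3f, Serpina3g and Serpina3i), against 8.30% of all 32851 promoter windows. These matches describe letters in the window and are not shown to be bound sites.

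Among the other clade A genes, Serpina9 stood out. Serpina9, also named centerin and known from germinal-centre B cells in humans, was at 462 in the RBC library, against 18.7, 26.2 and 19.2 in HBC libraries, and was 21.6-fold higher (adjusted p = 0.00302). Serpina1e was the sole clade A member called higher in HBC libraries, at 7.13 in the RBC library and 16.2 ± 1.85 in HBC libraries (2.28-fold, adjusted p = 0.0191). This call depends on the settings: the change fell under 2-fold with equal column sums, with values as deposited or with a pseudocount of 10, and the adjusted p was 0.0572 without HBC library 1 and 0.0811 without library 2. Serpina1e belongs to the copies of alpha-1-antitrypsin, the main plasma inhibitor of neutrophil elastase, and 34.6% of its 50-base stretches occur in another gene. Serpina1b was at 3.03 in the RBC library and at 0, 0.761 and 0 in HBC libraries, and was not called (adjusted p = 0.0550), but it was called without HBC library 2. The remaining clade A genes were at or below 1.59 in both groups. They include the liver products Serpina5 (protein C inhibitor) and Serpina6 (corticosteroid-binding globulin), listed at 0 in all 4 libraries. Liver markers were near 0 too, with Alb listed at 0 in the RBC library and the 6 hepatocyte genes summing to 1.25 in the RBC library and 0.136 to 0.80 in HBC libraries.

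Clade B, the intracellular serpins, had more members higher in HBC libraries than in the RBC library, and its genes lie in 2 clusters. Of 19 tested clade B genes, 2 were called higher in the RBC library, 8 higher in HBC libraries and 9 were not called, beside shares of 34.2% (RBC library) and 12.8% (HBC libraries) over all genes. On chromosome 13, which carries the Serpinb1, Serpinb6 and Serpinb9 copies, 6 of 11 tested genes were called higher in HBC libraries, 0 higher in the RBC library and 5 were not called (median log2 change -1.67). Of these, Serpinb1c, Serpinb9b, Serpinb9c, Serpinb9e and Serpinb9f passed the filter only through the HBC values, so they could not be higher in the RBC library. The median of this cluster is the value of Serpinb9c. On chromosome 1, 2 of 8 tested were called in each direction and 4 were not called (median -0.05). Serpinb3a and Serpinb12 of that cluster passed only through the RBC value. The difference between the clusters was not tested.

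**Figure D3:**
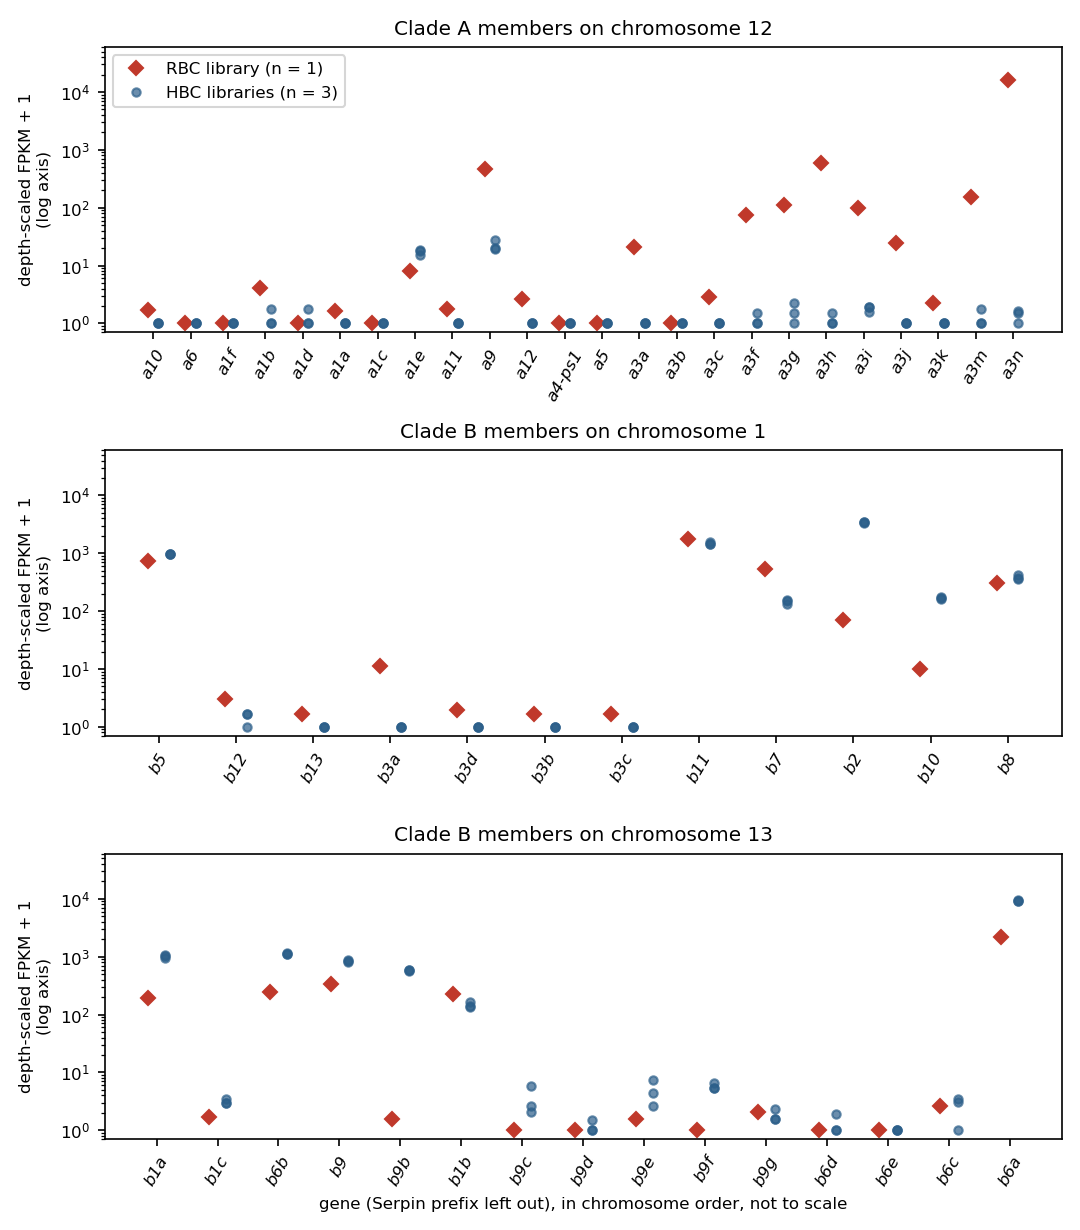
Depth-scaled FPKM plus 1 (y axis, log scale) of clade A genes on chromosome 12 (top) and clade B genes on chromosomes 1 (middle) and 13 (bottom), with genes along the x axis in chromosome order and not to scale. Diamonds are the RBC library and circles the 3 HBC libraries. Of the 11 Serpina3 genes at the right of the top panel, 8 are higher in the RBC library. Serpina3b, Serpina3c and Serpina3k are at 1.87 or less there. Serpinb1a, Serpinb6b, Serpinb9, Serpinb9b and Serpinb6a in the bottom panel are high in the HBC libraries.

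Serpinb6a, an inhibitor of trypsin-like enzymes and cathepsin G, was at 2150 in the RBC library, against 9237, 9076 and 9629 in HBC libraries (4.33-fold higher in HBC, log2 change -2.11 ± 0.05, SE, adjusted p = 0.000529). Its copy Serpinb6b was at 248 in the RBC library, against 1116, 1099 and 1149 in HBC libraries (4.52-fold, adjusted p = 0.000240). The HBC libraries lay close together and far above the RBC value for both genes. Serpinb6c was at 1.65 in the RBC library and 0 to 2.48 in HBC libraries, where the groups overlapped, and Serpinb6d and Serpinb6e were at or below 0.917 throughout.

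Serpinb1a, which inhibits neutrophil elastase, cathepsin G and proteinase 3, was at 190 in the RBC library, against 1040, 941 and 1055 in HBC libraries (5.33-fold higher in HBC, adjusted p = 0.00128). Serpinb1b, a copy of it in the same cluster, was at 229 in the RBC library and 163, 141 and 133 in HBC libraries, with the RBC value above all HBC values, but the difference was under 2-fold and not called (log2 change 0.66 ± 0.15, SE). Serpinb1c was at 0.663 in the RBC library and 1.98 to 2.49 in HBC libraries and was not called. The enzymes named above for Serpinb1a were low or listed at 0. Neutrophil elastase (Elane) and cathepsin G (Ctsg) were listed at 0 in all 4 libraries. Proteinase 3 (Prtn3) was at 6.05 in the RBC library and at 0 in HBC libraries.

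Serpinb9, the inhibitor that shields cells from granzyme B, was at 333 in the RBC library, against 813, 842 and 877 in HBC libraries (2.53-fold higher in HBC, adjusted p = 0.00155). Serpinb9b, a copy known in mice to inhibit granzyme M, showed the widest gap in clade B. It was at 0.536 in the RBC library, close to the smallest value above 0 of any serpin, against 592, 560 and 599 in HBC libraries (log2 change -8.57 ± 0.06, SE, adjusted p = 3.33e-05). Serpinb9b passed the filter only through the HBC values, so its direction was fixed. The transcripts of Serpinb9 and Serpinb9b can be told apart, since 0.378% and 0.478% of their 50-base stretches occur in another gene. Serpinb9f was called at a low level (0 in the RBC library, 4.71 ± 0.633 in HBC libraries, adjusted p = 0.00308), but 78.7% of its stretches are shared, and with a pseudocount of 10 the change was under 2-fold. Serpinb9c, Serpinb9d, Serpinb9e and Serpinb9g stayed at or below 6.51 in every library and were not called or not tested. Granzyme B itself (Gzmb) was at 3.82 in the RBC library and at 0 in HBC libraries.

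On chromosome 1 the neighbours Serpinb2 and Serpinb10 were higher in HBC libraries and Serpinb7 in the RBC library. Serpinb2, plasminogen activator inhibitor 2, which blocks urokinase, was at 69.4 in the RBC library, against 3404, 3364 and 3526 in HBC libraries (49.5-fold higher in HBC, log2 change -5.61 ± 0.04, SE, adjusted p = 2.98e-05). Serpinb10, a serpin of bone marrow cells in humans, was at 9.0 in the RBC library, against 173, 161 and 170 in HBC libraries (18.7-fold, adjusted p = 0.000312). The annotated transcripts of these neighbours share sequence: 6.97% of the Serpinb10 stretches also lie in Serpinb2. Serpinb7, or megsin, which in humans is needed for the barrier of palm and sole skin, was at 536 in the RBC library, against 154, 132 and 151 in HBC libraries (3.67-fold higher, adjusted p = 0.00334). Serpinb3a, a copy of the squamous cell carcinoma antigens, was at 10.4 in the RBC library and at 0 in all 3 HBC libraries, so no p is given. The copies Serpinb3b, Serpinb3c and Serpinb3d were at 0.636 to 0.965 in the RBC library and at 0 in HBC libraries.

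A set of chromosome 1 members was high in the RBC library and in the HBC libraries. Serpinb11, an active trypsin inhibitor in mice, was at 1750 in the RBC library, against 1466, 1463 and 1548 in HBC libraries (1.17-fold). With the medians set equal its direction turned (log2 change -0.27). Serpinb5, or maspin, an epithelial serpin without inhibitory action, was at 727 in the RBC library, against 952, 977 and 985 in HBC libraries, a log2 change of -0.42 ± 0.03 (SE). The RBC value lay below all HBC values but the gap was 1.34-fold. Serpinb8, which inhibits the processing enzyme furin in humans, was at 302 in the RBC library, against 420, 359 and 366 in HBC libraries, and was not called (adjusted p = 0.104). Serpinb12 and Serpinb13, serpins of stratified epithelia, were at or below 1.96 in both groups.

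Start regions of 3 chromosome 1 members follow, as a member higher in HBC libraries (Serpinb2), a member higher in the RBC library (Serpinb7) and a member not called (Serpinb11). All lie on the plus strand, at chr1:107511173-107511472, chr1:107422439-107422738 and chr1:107362064-107362363, and capitals mark the same 3 motifs as above.
Serpinb2: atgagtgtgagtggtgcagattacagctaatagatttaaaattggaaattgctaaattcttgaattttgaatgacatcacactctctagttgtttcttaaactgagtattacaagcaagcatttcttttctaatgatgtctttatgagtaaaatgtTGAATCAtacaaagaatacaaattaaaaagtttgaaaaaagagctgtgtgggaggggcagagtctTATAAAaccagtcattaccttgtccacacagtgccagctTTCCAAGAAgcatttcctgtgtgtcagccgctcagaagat
Serpinb7: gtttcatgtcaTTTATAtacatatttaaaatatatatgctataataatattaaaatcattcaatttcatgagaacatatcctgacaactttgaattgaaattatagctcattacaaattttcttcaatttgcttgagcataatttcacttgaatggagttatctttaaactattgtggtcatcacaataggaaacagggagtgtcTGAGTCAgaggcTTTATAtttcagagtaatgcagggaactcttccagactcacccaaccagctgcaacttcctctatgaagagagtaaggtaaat
Serpinb11: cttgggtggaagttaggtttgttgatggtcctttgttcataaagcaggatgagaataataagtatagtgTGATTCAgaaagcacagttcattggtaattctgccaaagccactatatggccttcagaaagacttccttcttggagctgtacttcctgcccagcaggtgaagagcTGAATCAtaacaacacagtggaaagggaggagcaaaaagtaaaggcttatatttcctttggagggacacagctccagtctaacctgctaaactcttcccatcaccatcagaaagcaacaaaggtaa
All 3 windows hold TGANTCA, although the genes differ in direction. It was found in 7 of the 11 chromosome 1 clade B genes with a promoter (Serpinb2, Serpinb5, Serpinb7, Serpinb8, Serpinb10, Serpinb11 and Serpinb12), in 0 of 14 on chromosome 13, and in 7.81% of all promoter windows. The same 7 genes include all 6 clade B genes of chromosome 1 at 100 or more in a group. The Serpinb3 copies, which are low in every library, hold TATAAA and not TGANTCA, and TATAAA was present in 13.6% of all windows. No test was made of these counts.

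In clade E, Serpine2, or protease nexin 1, an inhibitor of thrombin and urokinase that stays bound to the cell surface and matrix, was at 710 in the RBC library, against 2724, 2813 and 2781 in HBC libraries (3.90-fold higher in HBC, log2 change -1.96 ± 0.03, SE, adjusted p = 0.000165). Serpine3 was at or below 0.967 in every library.

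The plasminogen activators and the urokinase receptor were higher in HBC libraries, and other genes of the system divided. Of 12 tested genes of the plasminogen system, 4 were called higher in the RBC library (34.2% of all genes), 6 higher in HBC libraries (12.8% of all genes) and 2 were not called. Urokinase (Plau) was at 48.4 in the RBC library, against 1566, 1729 and 1644 in HBC libraries (34.0-fold higher in HBC, adjusted p = 0.000199). Its receptor Plaur was at 113 in the RBC library, against 1340, 1425 and 1437 in HBC libraries (12.4-fold, adjusted p = 0.000236). Tissue plasminogen activator (Plat) was at 598 in the RBC library, against 3677, 3676 and 3658 in HBC libraries (6.13-fold, adjusted p = 1.15e-05). Both activators, the urokinase receptor and the inhibitors Serpinb2 and Serpine2 were thus higher in HBC libraries. The plasminogen-binding pair Anxa2 and S100a10 was also higher there (5.62-fold and 4.73-fold). In the other direction, the endocytic receptor Lrp1, which clears serpin complexes, was at 429 in the RBC library and 109 ± 3.48 in HBC libraries (3.93-fold higher, adjusted p = 0.000699). Its relative Lrp2 was at 225 in the RBC library and 0.132 ± 0.0178 in HBC libraries, and the membrane protease Hpn was at 479 in the RBC library and 16.7 ± 3.85 in HBC libraries (28.6-fold higher). Among other relatives of Lrp1, Lrp8 was called 3.65-fold higher in HBC libraries (16.0 in the RBC library, against 58.2) and Vldlr was not called. Lrp2 and Klkb1, both called higher in the RBC library, passed the filter only through the RBC value, so their direction was fixed. Plasminogen itself (Plg), a liver product, was listed at 0 in all 4 libraries.

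**Figure D4:**
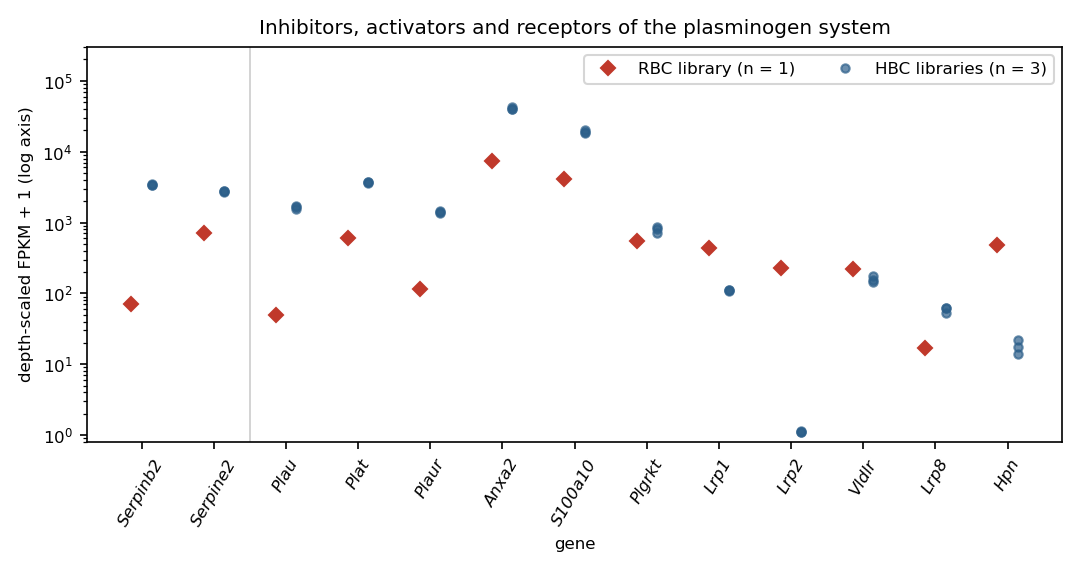
Depth-scaled FPKM plus 1 (y axis, log scale) of 2 serpin inhibitors (left of the grey line) and 11 genes of the plasminogen system (right of it) along the x axis, with diamonds for the RBC library and circles for the 3 HBC libraries. Serpinb2, Serpine2, Plau, Plat and Plaur lie higher in HBC libraries, and Lrp1, Lrp2 and Hpn higher in the RBC library.

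The single members of the other clades were higher in the RBC library or not called. Serpinf1, or PEDF, a secreted factor that restrains vessel growth and does not inhibit proteases, was at 121 in the RBC library, against 15.3, 20.2 and 12.2 in HBC libraries (7.64-fold higher, adjusted p = 0.0110), with an adjusted p of 0.0600 without HBC library 1. Serping1, the C1 inhibitor of the complement and contact systems, was at 95.6 in the RBC library, against 1.44, 0 and 1.14 in HBC libraries (adjusted p = 0.0103). Its adjusted p was 0.0514 without HBC library 3 and 0.0698 with a pseudocount of 0.1. Serping1 passed the filter only through the RBC value, so its direction was fixed. Serpinf1 and Serping1 are both made by fibroblasts among other cells. The 8 fibroblast markers, higher in the RBC library, summed to the levels given above, with Dcn as most of the RBC sum. The part of such cells in these values was not tested. Serpinh1, or HSP47, the collagen chaperone of the endoplasmic reticulum, was at 1765 in the RBC library, against 1147, 1172 and 1181 in HBC libraries. It stood above every HBC library, but the change of 1.51-fold was under the 2-fold minimum. Serpini1, or neuroserpin, an inhibitor of tissue plasminogen activator in neurons, was at 12.6 in the RBC library, against 10.3, 14.0 and 11.6 in HBC libraries, and the groups overlapped. Serpinf2, the plasmin inhibitor, was at 2.33 in the RBC library and 0.468 to 1.85 in HBC libraries and was not called. The liver products Serpinc1 (antithrombin) and Serpind1 (heparin cofactor 2) were at or below 0.941 in every library, and Serpini2 was at 0.

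The clients of these last members were examined in lists. Of 20 genes for collagens and the enzymes that modify them, 9 were called higher in the RBC library (45%), 3 higher in HBC libraries (15%) and 8 were not called, beside 34.2% and 12.8% of all genes. Collagens had the largest changes toward the RBC library, where Col7a1, which anchors epithelium to the tissue below, was at 769, against 3.31 ± 0.843 in HBC libraries. Col1a1 and Col1a2, both also on the fibroblast marker list, were at 361 and 350 in the RBC library and at 1.27 ± 0.265 and 2.64 ± 1.44 in HBC libraries. The collagens Col4a1, Col4a2 and Col5a1 were not called. Col6a2, called higher in the RBC library, passed the filter only through the RBC value, so its direction was fixed. The 3 genes called higher in HBC libraries were the collagen hydroxylases P4ha2, Plod2 and P4ha1, which were at 133, 133 and 185 in the RBC library and at 509 ± 15, 485 ± 13.7 and 439 ± 3.72 in HBC libraries. Another collagen hydroxylase, Lepre1, was called higher in the RBC library (86.9, against 24.0 in HBC libraries), and Plod1 and Plod3 were not called. Among 12 tested coagulation and complement genes, 8 were called higher in the RBC library (66.7%), 2 higher in HBC libraries (16.7%, near the 12.8% of all genes) and 2 were not called. The complement proteases C1s and C1ra, the targets of Serping1, were at 466 and 148 in the RBC library and at or below 2.41 in HBC libraries, and the call of C1ra was lost with a pseudocount of 0.1 and without HBC library 1. C1ra, C1qa, C1qb, C1qc and F2 passed the filter only through the RBC value, so the direction of these calls was fixed. Tissue factor (F3), which starts coagulation, was at 19172 in the RBC library and 1373 ± 38.1 in HBC libraries (14.0-fold higher). The protease-activated receptor F2rl1 was 3.45-fold higher in HBC libraries (712 in the RBC library against 2457 ± 38.5). Another such receptor, F2r, was called 2.61-fold higher in the RBC library (2244, against 860 ± 11.3 in HBC libraries). That call was lost with the medians set equal (log2 change 0.88).

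Proteases of epithelial cells divided, and those of granules were low. Of 15 tested epithelial proteases, 6 were called in each direction (40% each) and 3 were not called, beside 34.2% of all genes higher in the RBC library and 12.8% higher in HBC libraries. 5 kallikreins were higher in the RBC library, among them Klk1 at 919, Klk14 at 364 and Klk13 at 123 (these 3 at 0 in HBC libraries, so no p is given). Klk10 (138 in the RBC library, 19.4 in HBC libraries) and Klk11 (87.1 in the RBC library, 0.292 in HBC libraries) were called higher in the RBC library too. Klk1, Klk11, Klk13 and Klk14 passed the filter only through the RBC value, and Tmprss11e only through the HBC values, so their direction was fixed. Among trypsin-like enzymes of the cell membrane the direction differed, and Tmprss2 was called 3.02-fold higher in the RBC library (725, against 240 in HBC libraries). Prss27, Tmprss4 and Tmprss11e were at 9.80, 54.7 and 0.289 in the RBC library and at 648 ± 53.3, 1245 ± 40.1 and 1065 ± 66.4 in HBC libraries. Of 8 listed cysteine proteases, enzymes that some clade B and A serpins block, 3 were called higher in the RBC library (37.5%, close to the 34.2% of all genes), 3 higher in HBC libraries and 2 were not called. Cathepsin L (Ctsl), cathepsin H (Ctsh) and Casp8 were at 6490, 887 and 168 in the RBC library and at 14954 ± 403, 3299 ± 44.8 and 539 ± 22.9 in HBC libraries. Caspase 1 (Casp1) was at 223 in the RBC library and 6.02 ± 0.610 in HBC libraries (37.1-fold higher). Cathepsin S (Ctss) was at 117 in the RBC library and 23.9 ± 4.04 in HBC libraries (4.89-fold higher), with an adjusted p of 0.0514 without HBC library 3. Of 10 tested granule proteases, 6 were called higher in the RBC library, each at 0 in all HBC libraries and at or below 17.7 in the RBC library, so the filter fixed these calls. Their number was 2 with a filter minimum of 5, a pseudocount of 10 or quantile normalization. The exception in the other direction was Mcpt8, a protease of basophils, listed at 0 in the RBC library and at 77.1 ± 2.48 in HBC libraries.

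Members at 100 or more in a group show the family without the low genes. There were 21 of these, of which 8 were called higher in the RBC library, 8 higher in HBC libraries and 5 were not called. Of all 10351 genes at that level, the RBC library was higher for 22.8% by the same rule and HBC libraries for 15.8%. Of the 21, 11 reached 100 in both groups (1 called higher in the RBC library, 5 higher in HBC libraries and 5 not called), 7 in the RBC library alone and 3 (Serpinb2, Serpinb9b and Serpinb10) in HBC libraries alone, so the level itself fixed the direction of the last 10. All 5 clade A members of the 21 reached 100 in the RBC library alone. For the 14 members with an HBC mean of 100 or more, the SD between HBC libraries was 1.51% to 10.7% of the mean.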

How the data were processed

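RNA was sequenced from 1 RBC and 3 HBC libraries. The authors deposited 1 table of values named FPKM, with 1 column per library matched by name to the sample titles. Per the submitters' processing notes, which give no order, the tools were STAR, Cuffnorm and Cufflinks 2.2.1 and the build was mm9. Annotation, filters and any use of strand are not stated there.

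Low values stepped alike in every library: among genes below 4 in all libraries, the 2 values of 12.3% to 26.0% of genes above 0 in both libraries of a pair were equal within 2%, and Serpinb1c was 2.99, 2.98 and 3.01 times its RBC value in the HBC libraries. Depth thus appeared not to be divided out, and reads per library are unknown, so no counting interval is given. Each library was divided by a factor, the median of its ratios to the gene-wise geometric mean (11134 genes at 10 or more everywhere) (1.06 for RBC, 0.843, 1.05 and 1.07 for HBC). An exact 0 can be a failed estimate, since Hmgcs1 was listed at 0 in all 4 libraries. Low values above 0 may be failed estimates too. Before scaling, Gapdh was listed at only 9.55 in the RBC library and at 28.8 to 48.4 in HBC libraries.

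Genes with a mean of the 2 group levels of at least 1 were tested on log2(value + 1) with limma 3.58.1 in R 4.3.3 (trended eBayes, two-sided, Benjamini-Hochberg), which understates changes of low genes. The code was tested on simulated data. The labels do not say whether HBC libraries came from separate animals, so p-values may measure technical spread. Folds are ratios of scaled levels, given where both groups reach 5. Members at 100 or more in a group are given in every library, the others by group level or range. The values of 1 member are not reported here. From each protease list up to 3 called genes per direction at 100 or more in a group were named by size of change; other list genes (such as the targets of single serpins, Anxa2, S100a10, Mcpt8, Klk10, Klk11, Tmprss2 and Lepre1) were chosen with their values known. Members and lists were chosen with earlier results of these data known. Ctsv was not matched. GENCODE M21 transcripts and RefSeq promoters are of GRCm38, so coordinates are not those of the authors' build. Alternatives covered scaling, pseudocount, filter, variance trend and leaving out each HBC library.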

Additional observations from a re-analysis of the deposited data

How the results depend on the processing

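Over 12 alternatives, 23 of the 37 serpins tested kept both direction and call under each alternative that could be fitted, among them Serpina3n, Serpinb2, Serpinb6a, Serpinb9b and Serpine2. Among the 23, the tested Serpina3 genes, Serpinb3a and Serpinb9b passed the filter through a single group alone. The direction of these members was thus fixed in the reported fit. The counts of serpins called stayed between 12 and 17 for higher in the RBC library (main 14) and between 8 and 14 for higher in HBC libraries (main 10). No paired analysis was possible because the single RBC library shares a number with only 1 HBC library. Over all genes, quantile normalization gave 3155 higher in the RBC library and 3663 higher in HBC libraries, in place of 5621 and 2105, and equal medians gave 3870 higher in HBC libraries. Of 435 values of single serpins, 11 lost their call, 9 gained one in the same direction and 10 turned direction.

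The serpin median log2 change of 0.60 became 0.70 with equal column sums, 0.71 with values as deposited, 0.10 with equal medians, -0.31 under quantile normalization, 0.66 with a pseudocount of 0.1, 0.20 with a pseudocount of 10, and 0.66 with a minimum of 5 or with no filter. It ranged from 0.42 to 0.64 when HBC libraries were left out in turn, and the cause of these shifts was not tested. Directions turned for 6 members, none of them called in the reported fit. Under quantile normalization this held for Serpina1b (log2 change -0.31), Serpinb12 (-0.69), Serpinb6c (-1.35), Serpinf2 (-1.11) and Serpini1 (-2.28), which was then called higher in HBC libraries (adjusted p = 0.0029). With equal medians it held for Serpinb11 (-0.27), Serpinb6c (-0.23) and Serpini1 (-0.42). When HBC libraries were left out in turn, Serpinb6c ranged from -0.30 (without library 3) to 0.60, and Serpini1 from -0.014 (without library 1) to 0.19. Serpinf2 was called without HBC library 3 (1.13). For low members, depth limits what can be seen, since values near 0.5 are close to the smallest serpin values above 0.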
